A study of Mus musculus with 2 samples.

Results

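The miR-342 and miR-338 hairpins each give a 5p and a 3p mature miRNA, and all 4 of these arms were measured in cultured mouse MDSCs (myeloid-derived suppressor cells), young myeloid cells able to dampen T cell responses. The members were the mouse array names that start with miR-342- or miR-338-, which took 4 of the 1080 names on the array. For the culture named GM-CSF plus IL-6, bone marrow cells of C57BL/6 mice were grown for 4 days in 5% serum with 40 ng/ml GM-CSF, a myeloid growth factor, plus 40 ng/ml IL-6, an inflammatory cytokine. The culture named GM-CSF only was grown in the same way with 40 ng/ml GM-CSF, so both received GM-CSF. Each culture was hybridised to 1 single-colour Agilent array. There is thus no spread between cultures and no test, and every error below covers replicate spots or the scanner software's error model. The labels do not say how many mice gave the marrow or whether it was pooled, and RNA came from the whole dish.

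PU.1, the transcription factor encoded by Spi1, directs progenitors toward macrophages and granulocytes. In mouse macrophage development PU.1 has been reported to activate a small set of miRNAs that includes miR-342 and miR-338 together with miR-146a and miR-155. Outside blood, miR-338 is best known for promoting the maturation of oligodendrocytes, the myelin-forming cells of the mouse brain, and miR-342 is also found in lymphocytes. PU.1 itself was not analysed here.

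Both miRNAs lie inside protein-coding genes on the same strand as their host. In the RefSeq tables (GRCm38.p6) Mir342 lies at chr12:108658620-108658718 on the plus strand, within Evl, which encodes an actin regulator of the Ena/VASP family. Mir338 lies at chr11:120014765-120014862 on the minus strand, within Aatk, a gene for a kinase of neurons. The tables used here do not give exons or introns. The hairpins are shown whole because each carries both measured arms, which stand in capitals.
Mir342 hairpin: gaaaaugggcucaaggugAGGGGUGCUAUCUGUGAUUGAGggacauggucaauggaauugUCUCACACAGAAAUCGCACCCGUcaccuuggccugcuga
Mir338 hairpin: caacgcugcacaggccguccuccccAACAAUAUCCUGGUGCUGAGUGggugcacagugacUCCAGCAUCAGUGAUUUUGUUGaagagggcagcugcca
The stretch between the arms is 20 bases in Mir342 and 13 bases in Mir338.

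The mature sequences are shown because the seed, bases 2 to 8, sets which messages a miRNA can pair with. It stands in capitals.
miR-342-3p: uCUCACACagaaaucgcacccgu
miR-342-5p: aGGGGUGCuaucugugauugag
miR-338-3p: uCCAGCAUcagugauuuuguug
miR-338-5p: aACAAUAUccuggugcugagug
The 4 seeds differ from each other, and each is shared by 0 other names among the 1679 mature mouse names of the RefSeq table. The array therefore holds no seed relative of any of them that this table can name. Seed composition spans a wide range, with 6 of 7 bases being G or C in miR-342-5p and 1 of 7 in miR-338-5p.

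A further miRNA lies on the opposite strand at the Mir338 locus. The Mir3065 hairpin overlaps the Mir338 hairpin over all of its 87 bases, and miR-3065-5p is complementary to miR-338-3p over 21 of 22 bases. Its sequence is given with the seed in capitals because it is nearly the full complement of miR-338-3p.
miR-3065-5p: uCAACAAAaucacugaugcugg
It was detected on neither array, with signals of 3.66 with GM-CSF plus IL-6 and 4.98 with GM-CSF only and 0 of its 40 spots well above background on each array. The other arm, miR-3065-3p, was also detected on neither array, with signals of 2.10 with GM-CSF plus IL-6 and 2.55 with GM-CSF only.

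The arrays lay on 1 slide and in 1 scan. Of the 1080 names, 308 were detected with GM-CSF plus IL-6 and 301 with GM-CSF only, and 292 on both arrays. The scanner's detection flag marked all 4 members as detected on both. The same flag also marked some viral names as detected on both. One was mghv-miR-M1-2-5p, with signals of 293 with GM-CSF plus IL-6 and 260 with GM-CSF only. Whether a flagged name is truly expressed was not tested. The number of arrays limits the precision. Signals are background-subtracted intensities summed over a name's probes, without scaling between arrays. Signals depend on the probe, so signals of different names are not compared as abundances.

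For mmu-miR-342-3p, the mature arm usually reported from this hairpin, the signal was 194 with GM-CSF plus IL-6 and 220 with GM-CSF only. The scanner software's error was 14.4 with GM-CSF plus IL-6 and 16.2 with GM-CSF only, and the spot standard error was 2.11 and 2.38. All 40 spots were well above background on each array. Ranges and medians of spots, here and below, leave out spots with an outlier flag (1 of 40 with GM-CSF plus IL-6 and 2 of 40 with GM-CSF only for this name, all on probe A_54_P2573). The brighter probe, A_54_P2574, had spots from 270.0 to 357 (median 325) with GM-CSF plus IL-6, against 297 to 406 (median 355) with GM-CSF only. The dimmer probe, A_54_P2573, ran from 173 to 213 (median 189) with GM-CSF plus IL-6, against 206 to 239.9 (median 218) with GM-CSF only. Both probes were lower with IL-6 before scaling, and the ranges of their spots overlapped. For A_54_P2573 the overlap rests on the highest spot with GM-CSF plus IL-6 alone. The next highest, at 203, lay below the lowest GM-CSF only spot.

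For mmu-miR-342-5p, the opposite arm of the same hairpin, the signals were 13.4 with GM-CSF plus IL-6 and 13.3 with GM-CSF only. These rest on 2 of its 4 probes. Probes A_54_P2567 and A_54_P2568 had median spot signals of -3.07 and -0.82 with GM-CSF plus IL-6, and of -0.85 and 0.26 with GM-CSF only. The negative control spots averaged 1.99 ± 3.71 with GM-CSF plus IL-6 and 2.61 ± 3.82 with GM-CSF only (SD over 974 and 991 spots), so those probes showed no signal above the controls. The other 2 probes, A_54_P2569 and A_54_P2570, had median spots of 33.2 and 40.1 with GM-CSF plus IL-6, and of 30.2 and 39.1 with GM-CSF only. In all, 20 of 40 spots were well above background with GM-CSF plus IL-6 and 19 of 40 with GM-CSF only. The deposited gene total of this arm also holds the total of miR-342-3p, and the probe sum was used in its place.

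For mmu-miR-338-3p, the arm linked to oligodendrocytes, 1 of 2 probes held nearly all of the signal. The name's signal was 24.2 with GM-CSF plus IL-6 and 25.7 with GM-CSF only. Probe A_54_P2545 gave 86.2% of it with GM-CSF plus IL-6 and 88.9% with GM-CSF only. Its spots ran from 37.5 to 67.2 (median 54.7) with GM-CSF plus IL-6 and from 52.2 to 72.1 (median 57.9) with GM-CSF only. The second probe, A_54_P2544, had 0 of 20 spots well above background on each array, and medians of 9.48 with GM-CSF plus IL-6 and 8.51 with GM-CSF only. The spot ranges of both probes overlapped between the cultures.

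For mmu-miR-338-5p, the opposite arm, all 4 probes carried signal. The name's signal was 39.8 with GM-CSF plus IL-6 and 36.7 with GM-CSF only, with 40 and 37 of 40 spots well above background. Median spots of the brightest probe, A_54_P2541, were 91.3 with GM-CSF plus IL-6 and 86.2 with GM-CSF only. Probes A_54_P2539 and A_54_P2542 were likewise higher with IL-6, at medians of 30.6 and 52.9 with GM-CSF plus IL-6, against 25.5 and 46.0 with GM-CSF only. Probe A_54_P2540 went the other way, with a median of 30.9 with GM-CSF plus IL-6 and 33.7 with GM-CSF only. The spots of each probe overlapped between the cultures.

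**Figure D1:**
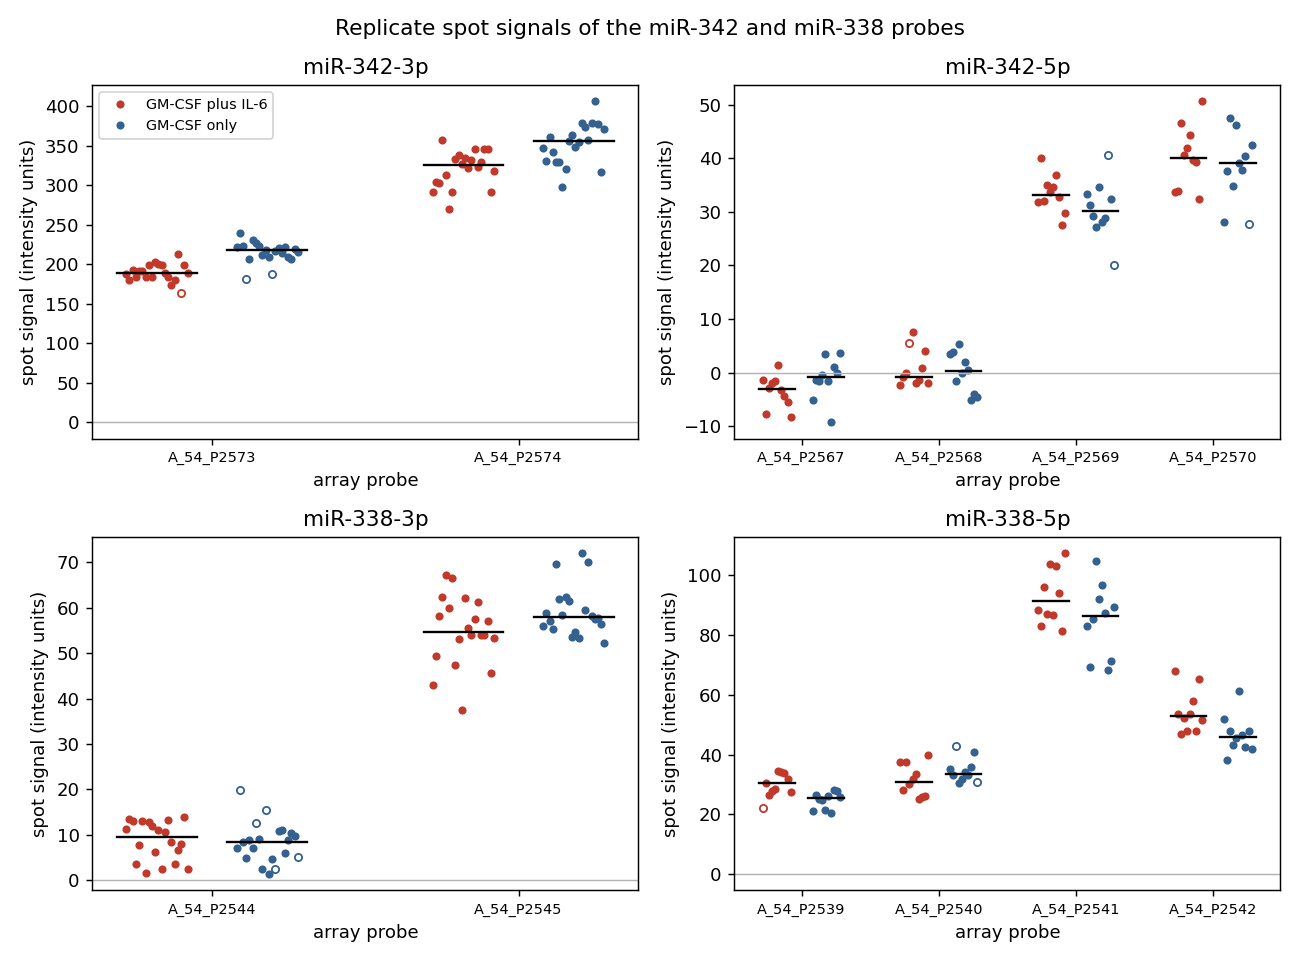
Spot signals (intensity units, linear axis) of each probe of the 4 names, with GM-CSF plus IL-6 in red on the left and GM-CSF only in blue on the right. Filled points are spots, open points are spots with an outlier flag and black bars are medians without them. In every probe the ranges of the filled points overlap between the cultures, and 2 probes of miR-342-5p lie around 0.

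The comparison of the cultures asks how IL-6, added to GM-CSF, was associated with the level of these miRNAs. None of the 4 differed by as much as 1.5-fold. Ratios were set against the median of the 292 names detected on both arrays, some of them viral, called the median of all names below. Relative to it, miR-338-5p was 1.13-fold and miR-342-5p 1.06-fold in the culture with IL-6 against the culture without. On the same scale miR-338-3p was 0.98-fold and miR-342-3p 0.92-fold. Of the 292 names detected on both arrays, 3.42% were at least 1.5-fold apart on this scale, so a count of 0 of 4 is close to that background and nothing particular to these miRNAs.

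The scale matters for these small values. With each array scaled to its 75th percentile, the log2 ratio (with IL-6 over without) was 0.0047 for miR-342-3p, 0.20 for miR-342-5p, 0.096 for miR-338-3p and 0.30 for miR-338-5p. The median of the 292 names was itself 0.12 on that scale, and 80.5% of the names lay above 0. The values below have that median subtracted and are called relative log2 ratios. Without any scaling the values were -0.18, 0.016, -0.087 and 0.12 in the same order of names, so that the sign of both 3p names depends on the scaling. With the 75th percentile taken over all 1080 names, miR-342-5p was also below 0, at -0.066.

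The relative log2 ratio of miR-342-3p was -0.11 ± 0.022 (spot SE). The value is 5.16 times its spot error, but the error from the scanner software's model is 0.15, larger than the difference. Of the 292 names, 148 had a relative ratio at least as large in size, itself counted here and in the like counts below. The 2 probes gave -0.15 and -0.091.

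The relative log2 ratio of miR-338-5p, the farthest from 0 of the 4, was 0.18 ± 0.045 (spot SE), against a model error of 0.14. In size it was matched or passed by 83 of the 292 names. Its probes did not go one way, at 0.35, 0.27 and 0.18 for A_54_P2539, A_54_P2542 and A_54_P2541 and -0.076 for A_54_P2540.

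The remaining arms lay closer to their own spot error. The relative log2 ratio of miR-342-5p was 0.080 ± 0.079 and that of miR-338-3p was -0.023 ± 0.054 (spot SE), with model errors of 0.30 and 0.26. The 2 probes of miR-342-5p with signal gave 0.17 and 0.078. The 1 probe of miR-338-3p above 3 times its error on both arrays gave -0.066. The other, A_54_P2544, was below that limit and was given no ratio. Its total went the other way before scaling, at 3.34 with GM-CSF plus IL-6 and 2.86 with GM-CSF only. The errors of these totals were 1.70 and 1.69. A relative ratio of at least that size was found for 186 of the 292 names in the case of miR-342-5p and for 261 in the case of miR-338-3p.

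**Figure D2:**
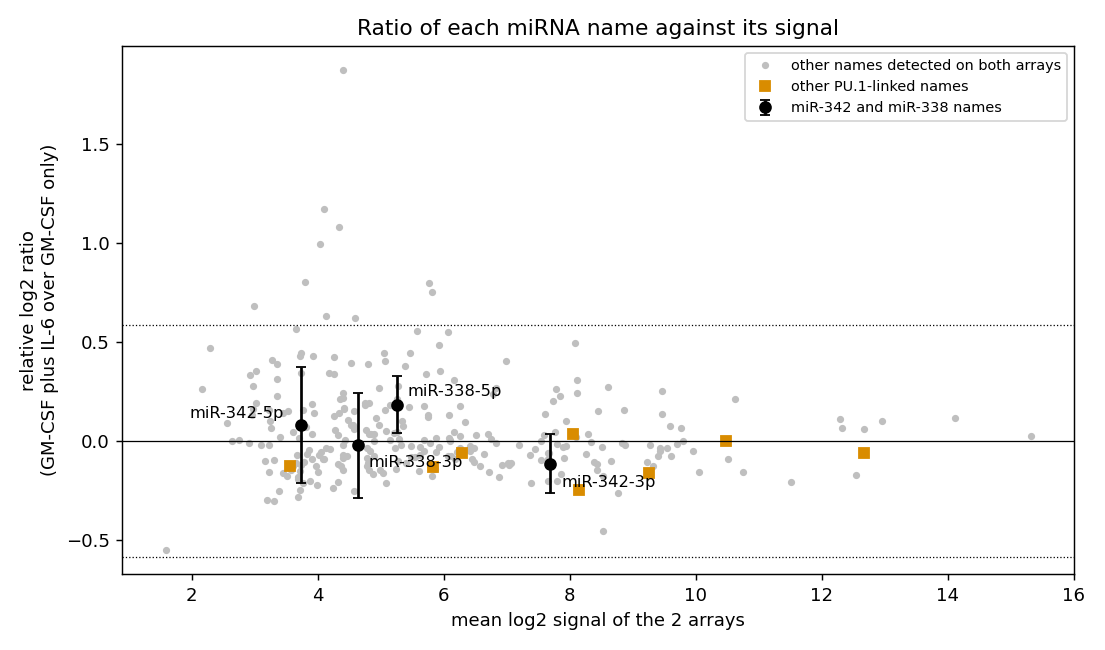
Relative log2 ratio (with IL-6 over without) of the 292 names detected on both arrays against their mean log2 signal. Black points are the 4 miR-342 and miR-338 names with the scanner software's error as bars, orange squares the other PU.1-linked names, and dotted lines mark 1.5-fold. All 4 names lie between the dotted lines, within the spread of the grey points.

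**Figure D3:**
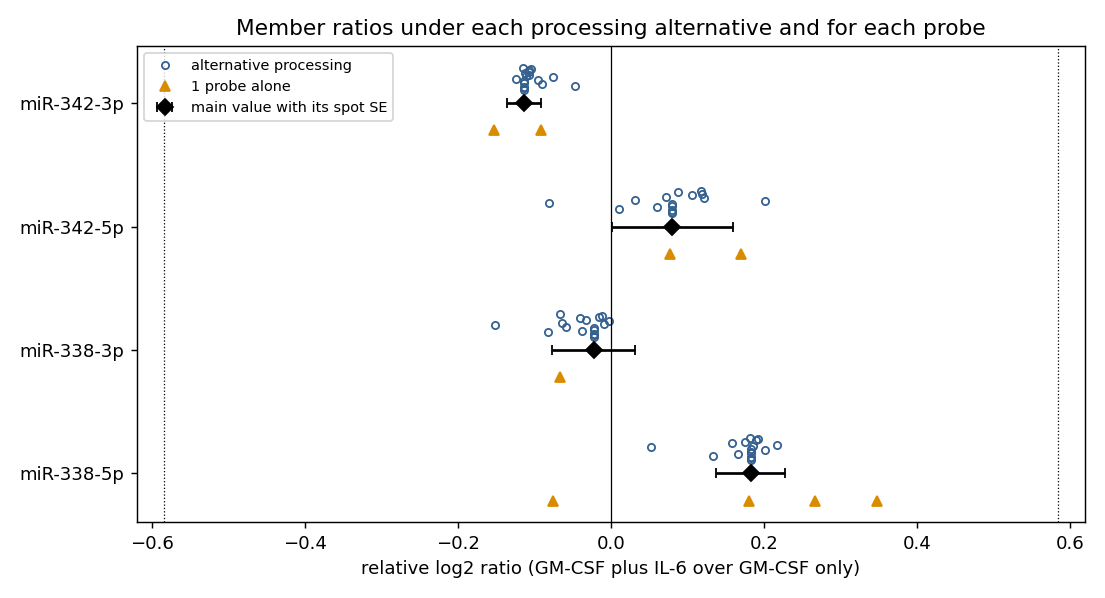
Relative log2 ratios (horizontal axis) of the 4 names. Black diamonds are the reported values with spot SE and blue circles the values under other processing. Orange triangles are single probes above 3 times their error on both arrays, and dotted lines mark 1.5-fold. The values of miR-342-3p and miR-338-3p stay below 0, and 1 circle for miR-342-5p and 1 probe of miR-338-5p cross it.

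Within both hairpins the 5p name had the higher ratio. A difference between arms does not depend on any scaling that moves all names alike. The log2 ratio of the 5p name minus that of the 3p name was 0.19 ± 0.082 for miR-342 and 0.21 ± 0.071 for miR-338 (spot SE), with model errors of 0.33 and 0.30. Both arms of a hairpin come from 1 transcript, and this arm comparison was chosen after the values were seen.

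Such differences were common on these arrays. A total of 27 mouse hairpins had a 5p and a 3p name detected on both arrays. Their median arm difference was -0.027, the middle 50% lay between -0.20 and 0.13, and 44.4% were above 0. An arm difference at least as high as that of miR-342 was found for 6 of the 27 (22.2%), the 2 hairpins included, and one at least as large in either direction for 13 (48.1%).

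**Figure D4:**
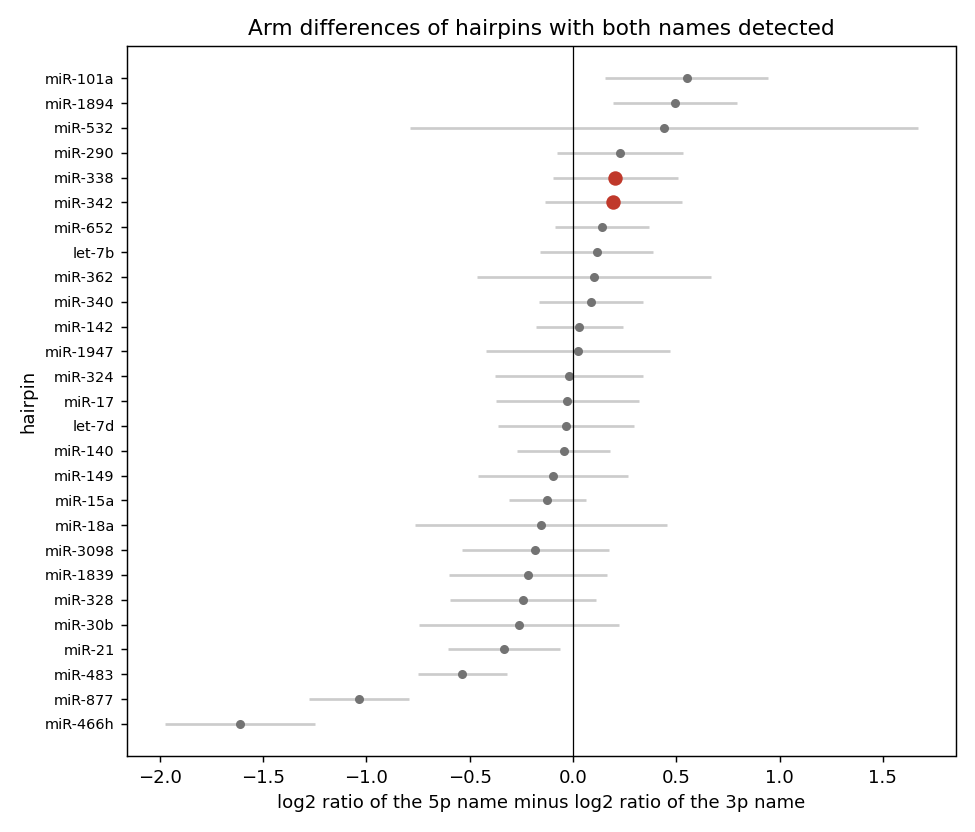
Arm difference (log2 ratio of the 5p name minus log2 ratio of the 3p name, with IL-6 over without) of the 27 hairpins with both names detected on both arrays, in order of size. Bars are the scanner software's errors, and red points are miR-342 (0.19) and miR-338 (0.21). Both lie right of 0, inside the range from -1.61 to 0.55 of all 27.

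Other miRNAs that have been linked to PU.1 were taken as a list of 8 names, all detected on both arrays. Their median relative log2 ratio was -0.094, with 6 of 8 below the median of all names (50% of the 292 lie below it by construction), and 0 reached 1.5-fold. No matched set of other miRNAs was compared, so the count of 6 is not read as particular to this list. The reported PU.1 set holds miR-155-5p, a miRNA of macrophage activation, at -0.25, and miR-146a-5p, which dampens NF-kB signalling, at -0.13. For miR-22-3p the signals were 564 with GM-CSF plus IL-6 and 659 with GM-CSF only, a relative log2 ratio of -0.16. The mouse counterpart of human miR-424, which PU.1 activates in human monocytes, is miR-322-5p, with signals of 74.7 with GM-CSF plus IL-6 and 81.5 with GM-CSF only (a relative log2 ratio of -0.060).

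The other names of the list lay on both sides of the median of all. For miR-503-5p, made from the same transcript as miR-322, the signals were 11.0 with GM-CSF plus IL-6 and 12.6 with GM-CSF only, a relative log2 ratio of -0.13. The myeloid miR-223-3p had a relative log2 ratio of -0.061, and the blood-cell miRNAs miR-142-3p and miR-142-5p had 0.0020 and 0.034. Within the reported PU.1 set, miR-342-3p, miR-338-3p, miR-155-5p and miR-146a-5p thus had negative relative ratios, and miR-342-5p and miR-338-5p positive ones, none of them tested. The model error of miR-155-5p was 0.17, smaller than the size of its ratio. Model errors were 0.19 for miR-146a-5p, 0.18 for miR-22-3p, 0.16 for miR-322-5p and 0.16 for miR-223-3p, each larger than the size of the ratio.

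The miR-17~92 cluster, which PU.1 represses through Egr2 in mouse macrophages, had 6 names, all detected on both arrays. Their median relative log2 ratio was -0.020, and 5 of 6 lay below the median of all names (50% of the 292 by construction). One of these 5, miR-19a-3p, was at -0.00052. Here too no matched set of other miRNAs was compared. The values ran from -0.063 for miR-18a-5p (195 with GM-CSF plus IL-6, 213 with GM-CSF only) to 0.0011 for miR-19b-3p (873 with GM-CSF plus IL-6, 912 with GM-CSF only). A name from another hairpin of chromosome 12, miR-345-5p, had signals of 20.97 with GM-CSF plus IL-6 and 23.1 with GM-CSF only, a relative log2 ratio of -0.076. Its partner miR-345-3p was detected on neither array, with signals of -0.53 with GM-CSF plus IL-6 and -0.57 with GM-CSF only.

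The names with the most similar ratio, over 2 arrays and by absolute difference of the relative log2 ratio, were taken 3 per member. They were miR-140-3p, miR-211-3p and miR-222-3p for miR-342-3p, and miR-324-3p, miR-1896 and miR-16-2-3p for miR-342-5p. For miR-338-3p they were miR-17-5p, miR-2861 and the viral name mcmv-miR-M87-1, and for miR-338-5p they were miR-328-5p, miR-467e-5p and miR-696. All 12 lay within 0.0025 of their member. With 292 names and 1 ratio each, such closeness is common.

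Markers of the cell types in which these miRNAs are also known were measured beside them. Of 5 names on the array from the neural and oligodendrocyte list, miR-219-5p and miR-128-3p were detected on both arrays, and miR-9-5p, miR-9-3p and miR-124-3p on neither. The 2 detected names summed to 35.8 with GM-CSF plus IL-6 and 33.8 with GM-CSF only, and the whole list, undetected names included, to 39.8 and 34.4. The relative log2 ratio was 0.15 for miR-128-3p and 0.14 for miR-219-5p, with model errors of 0.26 and 0.46, larger than the ratios. For miR-219-5p only 5 of 40 spots were well above background with GM-CSF plus IL-6 and 6 of 40 with GM-CSF only. For miR-128-3p it was 24 of 40 on each array. Of the lymphoid list, miR-150-5p was detected on both arrays, at a relative log2 ratio of -0.14, and miR-150-3p on neither, with sums of 55.1 with GM-CSF plus IL-6 and 63.6 with GM-CSF only. Their part in the member values was not tested. In RNA from a whole dish, fewer cells of a type and less RNA per cell cannot be told apart.

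For the labelled cell type, 3 of 4 myeloid names were detected on both arrays, and miR-223-5p on neither. Their sum was 7899 with GM-CSF plus IL-6 and 8535 with GM-CSF only. Of the other lists, 0 of 5 stromal names were detected on either array. The names detected on both arrays, each with its relative log2 ratio, were miR-451 among 3 erythroid ones on the array (-0.30), miR-200c-3p (-0.21) and miR-141-3p (0.19) among 5 epithelial ones, and miR-7a-5p among 2 pancreatic islet ones (-0.21). With GM-CSF plus IL-6 and GM-CSF only in turn, miR-451 had 1 and 6 of 40 spots well above background, and miR-141-3p 5 and 4. For miR-200c-3p the counts were 17 and 19, and for miR-7a-5p 20 and 20. Signals were 8.10 and 10.4 for miR-451 and 8.51 and 7.80 for miR-141-3p. The highest signals of undetected names were 9.78 and 10.3, so these 2 ratios rest on names near the detection limit. The epithelial miR-200b-3p was detected on the GM-CSF only array alone, with signals of 5.62 with GM-CSF plus IL-6 and 7.94 with GM-CSF only.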

How the data were processed

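MiRNA levels were measured on 1 array per culture from 0.2 ug of RNA labelled with Cy3, per the labels. Per the file headers, the authors' intensities come from Agilent Feature Extraction 10.7.1.1, background-subtracted and spatially detrended, with no scaling between arrays, and 0 spots were saturated. The labels' protocols name a cRNA amplification kit, which is made for mRNA arrays, and no header settles whether it served for these miRNA arrays. The authors' deposited table holds log2 values. For the 4 names, these equalled the log2 sum of the probes above 3 times their error minus 6.28 on each array. The column medians were -9.60 with GM-CSF plus IL-6 and -9.60 with GM-CSF only, and the origin of the constant is unknown.

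To give a level, the deposited total signals of all probes of a name were added, with 40 spots per name and array. Scaling used each array's 75th percentile over the 292 names detected on both arrays (160.1 with GM-CSF plus IL-6 and 181.8 with GM-CSF only). Spot errors came from spots without outlier flags, and model errors from the deposited probe errors, both combined as independent. The deposited total of a probe was tied to its mean spot by 1 constant per array. Of the 160 member spots, 3 with GM-CSF plus IL-6 and 12 with GM-CSF only had an outlier flag.

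No test between cultures was possible, and a threshold of 1.5-fold took its place. The members and lists were chosen with earlier results of these data known. Named were all members, all PU.1-linked names and hairpin neighbours, the brightest name and the one with the largest ratio of each other list, and the 3 names with the nearest ratio to each member. The names miR-219-3p and miR-486-5p of the marker lists had no exact match on the array and were not used here. Sequences came from RefSeq tables (GRCm38.p6), where all 4 names matched. Of the functions, the 75th percentile scaled ratio was tested on simulated spots, with changes larger than those reported for the members. Python 3.11.15, numpy 2.4.6, pandas 2.3.3, statsmodels 0.14.6 and matplotlib 3.10.9, with limma 3.58.1 in R 4.3.3, did the computing. The alternatives were other scalings (75th percentile over all names, median, none, quantile, loess with span 0.7, 6 control names starting dmr), gene totals, mean log2 spots (floor 1), normexp (offset 50), the authors' table, odd or even spots, outlier spots kept, single probes, mouse names alone and a filter on dim names. The arm differences, the sum over probes above 3 errors, and scaling by the 4 dmr names above 3 errors on both arrays, were added after seeing the data.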

Additional observations from a re-analysis of the deposited data

How the results depend on the processing

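No paired analysis was possible because each culture had 1 array. No value of the 4 names reached 1.5-fold under any alternative run. The relative log2 ratio of miR-342-3p was below 0 under 19 of 19 alternatives (-0.15 to -0.047) and that of miR-338-3p under 18 of 18 (-0.15 to -0.0032). That of miR-342-5p was above 0 under 17 of 18 (-0.081 to 0.20), the exception being the gene totals, which by construction add miR-342-3p. That of miR-338-5p was above 0 under 20 of 21, moving to 0.35 with probe A_54_P2539 and -0.076 with A_54_P2540. For miR-338-3p the 18 include the gene totals (-0.058), which add miR-331-3p. Uniform scalings repeat a relative value by construction. Arm differences ran from 0.015 (gene totals) to 0.33 for miR-342 and from 0.061 (normexp) to 0.33 for miR-338. Apart from the gene totals, the lowest values for miR-342 were 0.058 with quantile normalization and 0.11 with normexp. The filter on spots above background left out miR-342-5p. Single probes not above 3 times their error on both arrays gave no value, among them A_54_P2544 of miR-338-3p.

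Before the median of all was subtracted, some values moved by more than the spot SD, mostly with the scaling. They did so under 12 of 19 alternatives for miR-342-3p and 11 of 21 for miR-338-5p. For miR-342-5p it was 2 of 18, and for miR-338-3p 1 of 18. With the 75th percentile over all names, the log2 ratios were -0.26 (miR-342-3p), -0.066 (miR-342-5p), -0.17 (miR-338-3p) and 0.036 (miR-338-5p), against a median of all names of -0.15. For miR-342-3p and miR-338-5p they were -0.20 and 0.095 with median scaling, -0.18 and 0.12 with none, -0.098 and 0.082 with quantile normalization, -0.0998 and 0.16 with loess, 0.17 and 0.46 with the dmr controls (median of all 0.28), -0.19 and 0.11 with the 4 of 6 dmr names that had signal (median of all -0.076), -0.0996 and 0.029 with normexp, and -0.18 and 0.12 in the authors' table. The gene totals gave -0.11 for miR-342-3p and -0.099 for miR-342-5p, mean log2 spots -0.12 and the spot filter -0.12 for miR-342-3p, and probes A_54_P2539 and A_54_P2540 gave 0.47 and 0.043 for miR-338-5p. The median of the other PU.1-linked names, 0.025, became -0.24, -0.18, -0.16, -0.11, -0.10, 0.19 and -0.17 under the 7 scalings in the order above.

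Names at least 1.5-fold higher with IL-6 numbered 16, and 7, 8, 8, 7, 10, 39 and 8 under those scalings and 10 relative to the median. Names at least 1.5-fold lower numbered 0, and 2, 1, 1, 1 and 1 under the first 5, and 1 with the 4 dmr names. At least 2-fold higher were 4 names, and 2 with the 75th percentile over all names, 2 with median scaling and 7 with all 6 dmr controls.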

Other observations

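The deposited gene total of miR-342-5p was 208 with GM-CSF plus IL-6 and 233 with GM-CSF only, although its probes summed to 13.4 and 13.3. On both arrays the excess over its probes above 3 errors equalled the gene total of miR-342-3p, the detected name before it in name order (194 with GM-CSF plus IL-6 and 220 with GM-CSF only). For miR-338-3p the gene totals were 40.9 with GM-CSF plus IL-6 and 45.2 with GM-CSF only, and the excess equalled the gene total of miR-331-3p (20.1 and 22.3). The gene totals of miR-342-3p and miR-338-5p equalled their probe sums. A ratio taken from gene totals would give miR-342-5p the sign of miR-342-3p.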
